A study of Mus musculus with 14 samples.

Results

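The liver transcriptome of wild-type mice kept on normal chow was described from 6 libraries, 1 from each of 6 livers. They are all the libraries that the genotype label calls littermate WT with Cre, 6 of 14 in the series. The other 8 libraries come from littermates labelled Het Cre (4) and Homo Cre (4) for Pkd1, the gene of polycystin 1, on the same chow. They served here only as a second set of livers in which the same spread could be measured, and no genotype was compared with another. All 14 mice carry Cre in the label. The labels name neither the Cre driver nor the Pkd1 allele, and they give no sex, age, litter, hour of collection, feeding state or sequencing batch. In the WT libraries Xist had at most 12 counts, and 4 Y-linked genes together had at least 3880 counts. The labels give 1 numbered mouse per library, so the spread below is between animals, and it also contains any difference in dissection, RNA handling and library preparation. The livers are named WT 1 to WT 6.

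The liver is built mainly of hepatocytes, which secrete most plasma proteins, convert and store nutrients, make bile acids and detoxify foreign compounds. Several of these tasks follow signals that rise and fall within a day or within hours: feeding and fasting, the circadian clock, pulses of growth hormone and the cytokines of the acute phase response. Growth hormone acts on hepatocytes through the kinase JAK2 and the factor STAT5, and the cytokine interleukin 6 acts through STAT3.

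WT libraries held from 25238100 to 40926000 estimated counts. The unit CPM used below divides a gene's counts by the library's effective size, after TMM scaling. Spread is given as the biological coefficient of variation (biological CV), the SD between livers divided by the mean after the variance expected from counting reads is taken out. Each of 13751 genes with enough counts was tested with a Poisson chi-square test for spread beyond counting noise. Each was also tested with edgeR's goodness-of-fit test for spread beyond the dispersion trend, a curve fitted to spread against level. Both tests were adjusted with Benjamini-Hochberg, with a threshold of 0.05. The trend was nowhere under 0.143, above the median biological CV of genes from 5 CPM up (0.0837 to 0.122 by level). A gene below the trend can therefore vary more than most genes of its level. WT 1 stood somewhat apart: its rank correlations with the other 5 libraries over 12934 genes ran from 0.970 to 0.980, and it had the extreme score on the first principal component (36.9% of the variance). The test was therefore repeated in 6 fits, each without 1 library. A gene named below as called was called in all 6, unless a lower number or the library that ended the call is given.

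A few genes took most of the counts. On average 13 genes held 25% of them, 88 held 50%, 988 held 75% and 3510 held 90%, out of 57180 in the table. The 10 highest genes of each library took 22.3 ± 0.575% (SD, n = 6). Nuclear protein-coding genes took 75.04 ± 0.965%, mitochondrially encoded genes 11.1 ± 0.841%, the RNA of the signal recognition particle (7SL RNA, genes Rn7s) 7.33 ± 0.819%, and nuclear ribosomal RNA genes 2.95 ± 0.913%.

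The gene with the most counts was Rn7s1, a 7SL RNA gene, with 4.86 ± 0.799% of the counts. Alb, the gene of serum albumin, came next with 4.17 ± 0.748%, from 3.44% to 5.19%. Rn18s-rs5, a ribosomal RNA gene, took 2.73 ± 0.873%. Rn7s2, a second 7SL RNA gene, took 2.47 ± 1.20%, from 1.38% in WT 6 to 4.61% in WT 3. It was the only one of the 20 highest genes called beyond the trend (biological CV 0.482). Its call ended without WT 3 (0.327), WT 4 (0.454) or WT 6 (0.447). Rn7s1 was lowest in WT 3 (3.93%) and highest in WT 4 (5.77%) and WT 6 (5.70%), where Rn7s2 was lowest. In WT 5 they took 5.18% and 2.78%. The Rn7s genes together ran from 6.17% to 8.53%. Rn7s1 and Rn7s2 are not in GENCODE M21, so they could not be searched for near-identical copies. How reads were split between them was not tested. The plasma protein genes among the 20 highest were Alb, Apoe (1.22 ± 0.144%), which clears lipoprotein remnants, Serpina1e (1.14 ± 0.334%), a copy of alpha-1-antitrypsin, Apob (1.06 ± 0.0704%), the backbone of very low density lipoprotein, Mup7 (0.996 ± 0.245%), a major urinary protein, Serpina3k (0.920 ± 0.207%), Trf (0.836 ± 0.0967%), the iron carrier transferrin, Serpina1c (0.659 ± 0.0883%) and Ahsg (0.638 ± 0.0883%), the gene of fetuin-A. A list of 30 genes of secreted plasma proteins took 15.9 ± 0.966% together. The 8 mitochondrially encoded genes among the 20 highest were led by mt-Co1, a subunit of cytochrome c oxidase, with 1.98 ± 0.0835%.

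**Figure D1:**
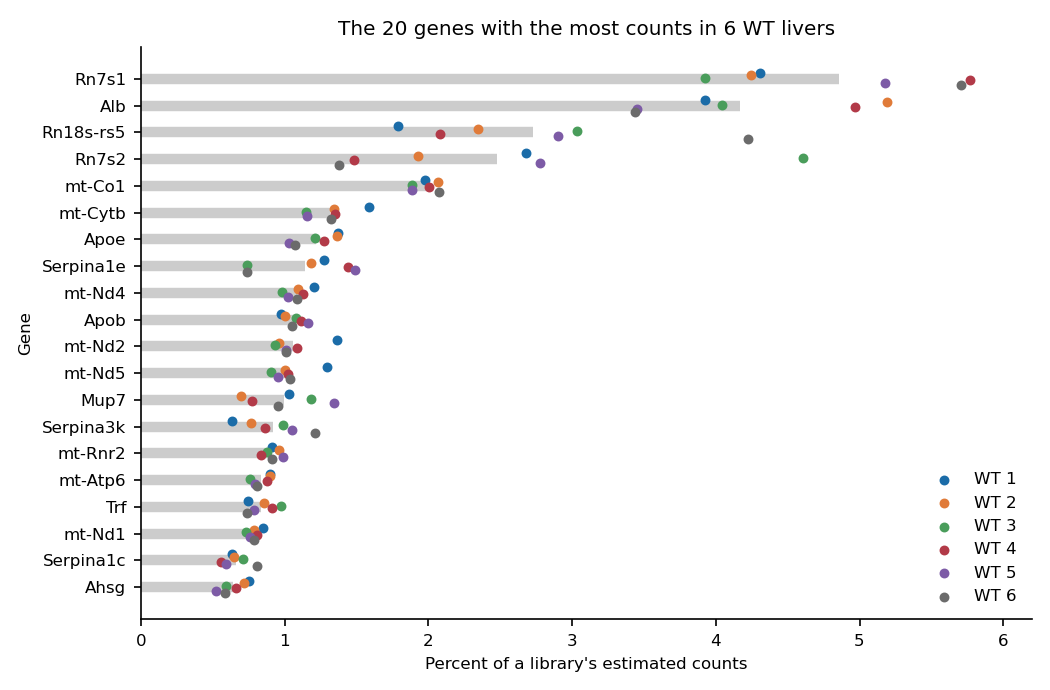
The 20 genes with the most counts, ordered by their mean share. The x axis is the percent of a library's estimated counts, each point is 1 of the 6 WT libraries, and the grey bar ends at their mean. Alb runs from 3.44% to 5.19%, while mt-Co1 stays between 1.88% and 2.07%.

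Long transcripts collect more fragments than short ones, so levels were compared between genes only after division by the length of the longest annotated transcript. The scale covers only genes with a length in GENCODE M21, which leaves out Rn7s1 and Rn7s2. Among these Alb was highest, at 20443 ± 3290 CPM per kilobase (SD, n = 6), from 17310 in WT 6 to 24894 in WT 2. The next 6 genes were all mitochondrial, from mt-Nd4l at 13421 ± 2522 to mt-Nd2 at 10229 ± 1478 CPM per kilobase. Mup7 (9675 ± 2513) and Apoe (8652 ± 862) followed. The range of each of these genes over the 6 livers overlapped that of its neighbours in this order. Apob, which has a very long transcript, was not among the 10 highest per kilobase.

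Of the markers of other tissues, those of muscle and pancreas were low. The 10 skeletal muscle markers summed to at most 0.419 CPM in a library, with 2 at 0 in all 6, and the 17 pancreas markers to between 13.6 and 20.8 CPM, with 8 at 0 in all 6. The 10 adipose markers summed to between 1327 and 2381 CPM, highest in WT 1, with 2 at 0 in all 6. Car3, a carbonic anhydrase that hepatocytes also make, gave 1322 to 2375 CPM of that sum. The 18 Kupffer cell markers, the resident macrophages of liver, summed to between 455 and 524 CPM, and 0 of 17 tested were called beyond the trend. The same held for 0 of 18 markers of sinusoidal endothelium, 0 of 18 of stellate cells and 0 of 8 of bile duct cells. Because 3.27% of all genes were called, counts of 0 in lists of this size are near the background. In bulk liver, a difference in the number of cells of a type cannot be told apart from a difference in RNA per cell.

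At this depth most genes varied by more than counting noise. The Poisson test called 10964 of 13751 genes (79.7%). The median biological CV was 0.115, 5% of the genes had 0.00906 or less and 5% had 0.382 or more. Beyond the dispersion trend, edgeR's goodness-of-fit test called 450 of 13751 genes (3.27%). The count depends on the tool: DESeq2 marked 254 genes as dispersion outliers, 249 of them among the 450, and limma's test of the variance against its prior called 1. Of the 450, 133 were called in all 6 fits that left out 1 library, 191 in 5 and 126 in 4 or fewer. The genes that lost the call numbered 138 without WT 1, 96 without WT 5, 79 without WT 2, 79 without WT 6, 70 without WT 3 and 64 without WT 4. Among the 9294 genes of at least 5 CPM, 116 had a biological CV over 0.5 and 19 over 1, while 4866 had one under 0.1.

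**Figure D2:**
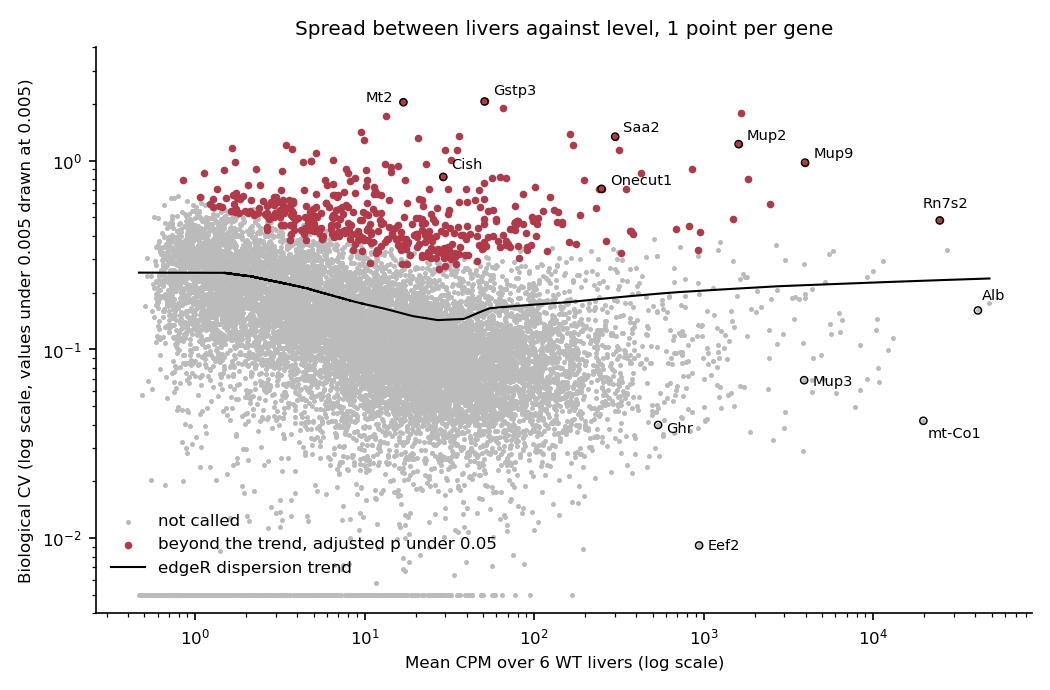
Biological CV between the 6 WT livers (y axis, log scale) against mean CPM (x axis, log scale), with 1 point per tested gene. Red points are the 450 genes beyond the dispersion trend, drawn as a black line. Gstp3 and Mt2 lie near 2, while the far more abundant Alb and mt-Co1 lie below the line. Alb, at 0.161, is still above the median of 0.122 for genes of at least 1000 CPM.

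Among the 10 least variable genes of at least 50 CPM were Rab7, Eef2, Rps24, Srrm1, Dld, Rpl7a, Ell2, Eif5a and Tnrc6a. Rab7, a GTPase of late endosomes, ranged only from 164 to 169 CPM, with a mean of 167 ± 1.73 (SD, n = 6) and a CV of 0.0103 that is no larger than counting predicts. Eef2, the elongation factor that moves the ribosome along the messenger, ranged from 922 to 949 CPM (biological CV 0.00916). Of 28 nuclear genes of oxidative phosphorylation 0 were called, with a median biological CV of 0.0543, of 31 ribosomal protein genes 0, with 0.0742, and of 18 tested reference genes in common use 0, with 0.0749. Over all genes 3.27% were called, so a count of 0 in lists of this size is near the background. Secreted plasma proteins (0 of 30, median 0.106), complement and coagulation (0 of 27, median 0.0957) and mitochondrially encoded genes (0 of 15, median 0.0905) were near or below the median of all genes, although they include the most abundant transcripts. That median includes low-count genes, which spread more. Genes from 100 to 1000 CPM had a median of 0.0837, and the complement, ribosomal protein, reference and oxidative phosphorylation lists had median levels in that range. Genes of at least 1000 CPM had 0.122. Pkd1, the gene that defines the series, stood at 34.6 ± 2.72 CPM, from 31.4 in WT 1 to 37.4 in WT 6 (biological CV 0.0719).

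**Figure D3:**
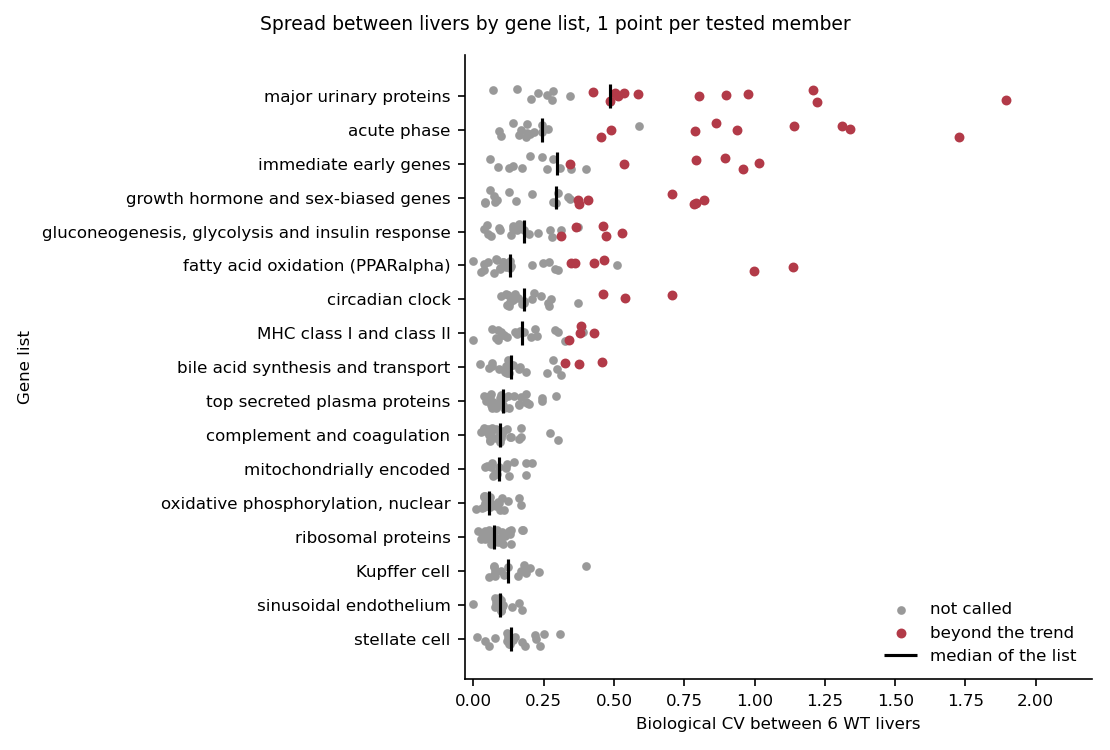
Biological CV of the tested members of 17 gene lists (1 point per gene, x axis), with the median of each list as a black bar. Red points are genes beyond the dispersion trend, which are found in 9 of the 17 lists and led by the major urinary proteins, where 12 of 21 are red.

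The acute phase response is the liver's answer to infection or injury, in which interleukin 6, interleukin 1 and tumour necrosis factor raise secreted defence proteins. Of 23 tested acute phase genes, 9 were called beyond the trend (against 3.27% of all genes), and their median biological CV was 0.244 against 0.115. WT 5 was the highest liver for 19 of the 23, and WT 4 the lowest for 16. Among all tested genes, 17.99% were highest in WT 5 and 15.1% were lowest in WT 4. Without WT 5, 6 of the 23 were called and the median was 0.153. Saa1 and Saa2 encode the serum amyloid A proteins that rise most in the response. Saa1 (ENSMUSG00000074115, chromosome 7) stood at 362, 87.6, 189.7, 32.8, 1021 and 215 CPM in WT 1 to WT 6. WT 5 held 31.2 times the level of WT 4, and the other 4 livers lay between them. The biological CV was 1.14 (adjusted p = 2.32e-33 by edgeR's goodness-of-fit test, called in 6 of 6 fits).

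Saa2 followed the same order at its ends, with 397, 47.8, 134, 18.5, 1077 and 129.7 CPM. Saa1 and Saa2 are near-identical transcripts, so the split of reads between them is uncertain. Their sum was 2099 CPM in WT 5 and 51.3 CPM in WT 4. Saa3, made mainly outside hepatocytes, was at 60.5 CPM in WT 5 and between 2.21 and 4.99 CPM in the other 5 livers (biological CV 1.73, called in 5 of 6 fits). Without WT 5 its biological CV was 0.261 and its call ended. Lcn2, which binds bacterial iron carriers, was at 75.2 CPM in WT 5, 3.31 CPM in WT 4 and between 7.39 and 13.7 CPM in the other 4 livers (biological CV 1.31, adjusted p = 4.21e-49 by edgeR's goodness-of-fit test, 6 of 6 fits). Orm2, an orosomucoid (45.5 CPM in WT 5 and 4.72 to 14.2 elsewhere), Steap4, a metal reductase (500.04 CPM in WT 5 and 82.7 to 211 elsewhere), and Lbp, which hands lipopolysaccharide to its receptor (118 CPM in WT 5 and 41.5 to 53.2 elsewhere), had the same liver at the top. Lbp lost its call without WT 5 (biological CV 0.115), and Saa4 without WT 5 (0.252) or WT 4 (0.457). The member of the list with the lowest spread was Cp, the copper carrier ceruloplasmin, with a biological CV of 0.0903.

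The correlation of Saa1 with Lcn2 over the 6 livers was the closest of 8 gene pairs computed. Pearson's r was 0.953 (exact permutation p = 0.00694, Benjamini-Hochberg adjusted p = 0.0556) and Spearman's rho 0.943 (exact permutation p = 0.0167, adjusted p = 0.133). Without the 2 livers farthest from the median of Saa1, WT 5 and WT 4, r was 0.871. No pair of the 8 passed the threshold, and with 6 livers the smallest possible p is 0.00278. The other pairs included Bmal1 with Dbp (r = -0.798, adjusted p = 0.261 by exact permutation).

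The sum of the neutrophil markers, like most acute phase genes, was highest in WT 5. In WT 1, the second highest liver for Saa1, that sum was 1.35 CPM. The 11 markers, none of which passed the filter, summed to 5.81 CPM in WT 5 and to between 1.07 and 1.91 CPM in the other 5 livers, and none was at 0 in all 6. Their part in the result was not tested. The Kupffer cell sum, 455 CPM, was at its lowest in WT 5.

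The bases before the annotated starts of Saa1, Saa2 and Saa3 are shown because each of these genes was highest in WT 5. The stretches also show how alike Saa1 and Saa2 are. They are 250 bases each, 5′ to 3′ on the gene's strand, from RefSeq (GRCm38.p6). Saa1 lies on the minus strand (chr7:46742981-46743230), Saa2 on the plus strand (chr7:46751583-46751832) and Saa3 on the minus strand (chr7:46715677-46715926). Capitals mark the letters TTGCNNAAT, on either strand, a core of sites for C/EBP factors, which take part in the acute phase response.
Saa1: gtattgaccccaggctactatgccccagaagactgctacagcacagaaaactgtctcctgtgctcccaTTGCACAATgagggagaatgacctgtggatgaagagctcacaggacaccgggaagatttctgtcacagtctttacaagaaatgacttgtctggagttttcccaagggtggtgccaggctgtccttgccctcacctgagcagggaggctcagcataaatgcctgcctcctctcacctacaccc
Saa2: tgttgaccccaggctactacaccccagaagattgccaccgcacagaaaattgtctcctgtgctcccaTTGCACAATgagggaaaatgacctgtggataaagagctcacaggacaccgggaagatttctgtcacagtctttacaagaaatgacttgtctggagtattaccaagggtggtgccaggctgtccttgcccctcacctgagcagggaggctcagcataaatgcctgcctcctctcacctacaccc
Saa3: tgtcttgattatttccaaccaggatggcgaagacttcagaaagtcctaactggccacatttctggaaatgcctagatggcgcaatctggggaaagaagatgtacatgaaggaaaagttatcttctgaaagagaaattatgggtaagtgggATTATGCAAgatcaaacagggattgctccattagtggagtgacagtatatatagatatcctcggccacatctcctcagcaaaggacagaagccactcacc
In a global alignment Saa1 and Saa2 shared 94.8% of the columns, and Saa1 and Saa3 48.5%. The letters begin 182 bases before the start in Saa1, 183 in Saa2 and 100 in Saa3. Of the 7 searched promoters of called acute phase genes that had an entry, 5 held the letters (Saa1, Saa2, Saa3, Saa4 and Steap4) and Lcn2 and Orm2 did not, while 2.45% of 27025 genes with a promoter of this length held them. The genes were searched because they vary, and Saa1 and Saa2 are alike over the whole stretch, so the count is a description. A match describes letters only, and binding was not measured.

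Metallothioneins, small proteins that bind zinc and copper and are also induced by glucocorticoids and cytokines, gave 2 of the widest spreads. Mt2 (ENSMUSG00000031762, chromosome 8) stood at 0.902, 6.07, 0.996, 0.533, 87.3 and 5.84 CPM in WT 1 to WT 6 (biological CV 2.04, adjusted p = 1.44e-136 by edgeR's goodness-of-fit test, 6 of 6 fits). Mt1 stood at 7.50, 30.9, 11.3, 9.49, 133 and 22.8 CPM (biological CV 1.35, 6 of 6 fits). WT 5 was highest for both, WT 2 and WT 6 came next, and WT 1, WT 3 and WT 4 were low. In the other 8 libraries Mt1 ran from 7.51 to 299 CPM and Mt2 from 0.778 to 167 CPM, and both were called there too. Tsc22d3, a glucocorticoid target, had another order, with 155 CPM in WT 4, 102 CPM in WT 2 and 56.3 to 89.1 CPM in the other livers, and its call ended without WT 4 (biological CV 0.250).

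Immediate early genes answer a stimulus within minutes without new protein. Of 18 tested, 6 were called (Gadd45g, Myc, Egr1, Socs3, Junb and Jun), and 12 of the 18 were highest in WT 5. Over all tested genes 3.27% were called and 17.99% were highest in WT 5. Egr1 was at 26.0 CPM in WT 5, 14.97 in WT 2, 10.8 in WT 1 and 2.84 to 3.65 CPM in WT 3, WT 4 and WT 6. Junb had the same 3 livers on top, with 17.3, 13.0 and 12.6 CPM against 4.08 to 7.17 CPM. Myc and Gadd45g split the livers another way. Myc reached 54.5 CPM in WT 5 and 47.7 CPM in WT 3, against 6.90 to 13.2 CPM in the other 4, and Gadd45g was at 89.6 and 52.7 CPM in the same 2 livers, against 3.37 to 26.5 CPM. Cxcl1, a neutrophil chemokine, reached 34.8 CPM in WT 5 and 22.8 CPM in WT 2, against 3.85 to 7.70 CPM elsewhere. All were called in 6 of 6 fits except Socs3 and Jun. Socs3 lost its call without WT 5 (biological CV 0.309), and Jun without WT 2 (0.287) or WT 3 (0.293).

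Growth hormone reaches the liver in pulses, most sharply in male rodents, and STAT5 then turns on Cish and Socs2, which damp the signal, and turns down Bcl6, a repressor that competes at STAT5 sites. Of 21 tested genes of growth hormone response and sex bias, 7 were called beyond the trend (against 3.27% of all genes). Cish (ENSMUSG00000032578, chromosome 9) stood at 6.70, 11.5, 67.9, 18.1, 48.4 and 22.1 CPM in WT 1 to WT 6 (biological CV 0.821, adjusted p = 1.92e-30 by edgeR's goodness-of-fit test, 6 of 6 fits). Socs2 stood at 2.64, 6.18, 21.1, 11.6, 22.2 and 40.1 CPM (biological CV 0.786, 6 of 6 fits). WT 1 and WT 2 were the lowest livers for both. Bcl6 (chromosome 16) was highest in those same 2 livers, at 76.8 and 68.1 CPM, against 9.94 to 36.6 CPM in the other 4 (biological CV 0.706, 6 of 6 fits).

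Onecut1 (HNF6, chromosome 9), a hepatocyte transcription factor known to respond to growth hormone, had 45.4 CPM in WT 1 and 54.8 CPM in WT 2, against 259 to 504 CPM in the other 4 livers (biological CV 0.709, adjusted p = 6.05e-21 by edgeR's goodness-of-fit test, 6 of 6 fits). The 2 low livers did not overlap the other 4. An uncharacterized gene, Gm56542, had nearly the same level as Onecut1 in each library, from 40.1 CPM in WT 1 to 429.6 CPM in WT 6, and whether the pair shares reads was not tested. Foxa2, another hepatocyte factor, was lowest in the same 2 livers, at 14.96 and 13.8 CPM, against 17.1 to 39.4 CPM. The receptor itself was steady: Ghr stood at 539 ± 21.9 CPM (biological CV 0.0398). The effector Igf1, whose hormone carries much of the growth signal in blood, had a biological CV of 0.0576. Cyp26a1, which breaks down retinoic acid, was high in WT 1 and WT 2, at 16.2 and 17.3 CPM, against 2.67 to 4.30 CPM. That gene was not called in the other 8 libraries.

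Bcl6 has 2 annotated promoters in RefSeq. The second is shown because it holds several stretches of the letters that STAT factors bind (chr16:23981284-23981533, minus strand, RefSeq, GRCm38.p6). Capitals mark TTCNNNGAA, which reads the same on both strands.
Bcl6: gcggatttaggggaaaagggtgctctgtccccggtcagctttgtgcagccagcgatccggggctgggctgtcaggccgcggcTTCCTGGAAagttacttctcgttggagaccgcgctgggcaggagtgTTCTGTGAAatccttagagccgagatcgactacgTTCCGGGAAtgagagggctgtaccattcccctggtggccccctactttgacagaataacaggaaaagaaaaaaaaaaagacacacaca
The letters begin 168, 122 and 88 bases before the start. The other promoter of Bcl6 holds the letters once, beginning 118 bases before the start. At least 1 match was found in 8.13% of 27025 genes with a promoter of this length. The window was chosen for its number of matches, which is therefore a description. The promoters searched for Cish, Onecut1 and Gadd45g held none in this window, and Socs2 had no entry. That of Socs3 held 1 match, beginning 154 bases before the start.

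Major urinary proteins are pheromone carriers secreted by the liver into blood and urine, encoded by a cluster of near-identical genes on chromosome 4 and driven by growth hormone, androgens and glucocorticoids. Of 21 tested Mup genes, 12 were called beyond the trend (against 3.27% of all genes). Their sum was 47151, 27642, 40227, 29374, 57438 and 57719 CPM in WT 1 to WT 6, so WT 2 and WT 4 had the least and WT 5 and WT 6 the most. The biological CV of that sum was 0.305, against a median of 0.485 for the members. The family took 4.31 ± 1.24% of the counts.

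The members had different patterns. The search for copies linked each of Mup9, Mup2, Mup17, Mup1 and Mup15 to 15 near-identical genes, so the split of reads between members is uncertain. Mup15 held 0.239% of the counts of its copies together. How far the patterns of single members reflect that split was not tested. Mup9 (ENSMUSG00000078686) stood at 6237, 91.7, 131, 1547, 6602 and 9208 CPM (biological CV 0.977, adjusted p = 1.05e-51 by edgeR's goodness-of-fit test, 6 of 6 fits). WT 2 and WT 3 were far below the other 4 livers. Mup2 was at 9.97, 31.6 and 124 CPM in WT 2, WT 3 and WT 4, against 2079 to 4954 CPM in the other 3 livers. Mup17 and Mup1 had the same 3 livers at the bottom. Mup15 ran the other way, at 311 CPM in WT 3 and 68.5 CPM in WT 2, against 0.694 to 6.98 CPM in the other 4 (biological CV 1.89, 6 of 6 fits). Mup3, which the search for copies paired with Mup21, was at 3922 ± 270 CPM (biological CV 0.0687) and differed between livers by less than the trend. WT 3, with a sum near the middle of the 6, had low Mup2 and Mup9 and the highest Mup15. Summing the 16 copies that the search linked to Mup7 left a biological CV of 0.364, which was still called.

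**Figure D4:**
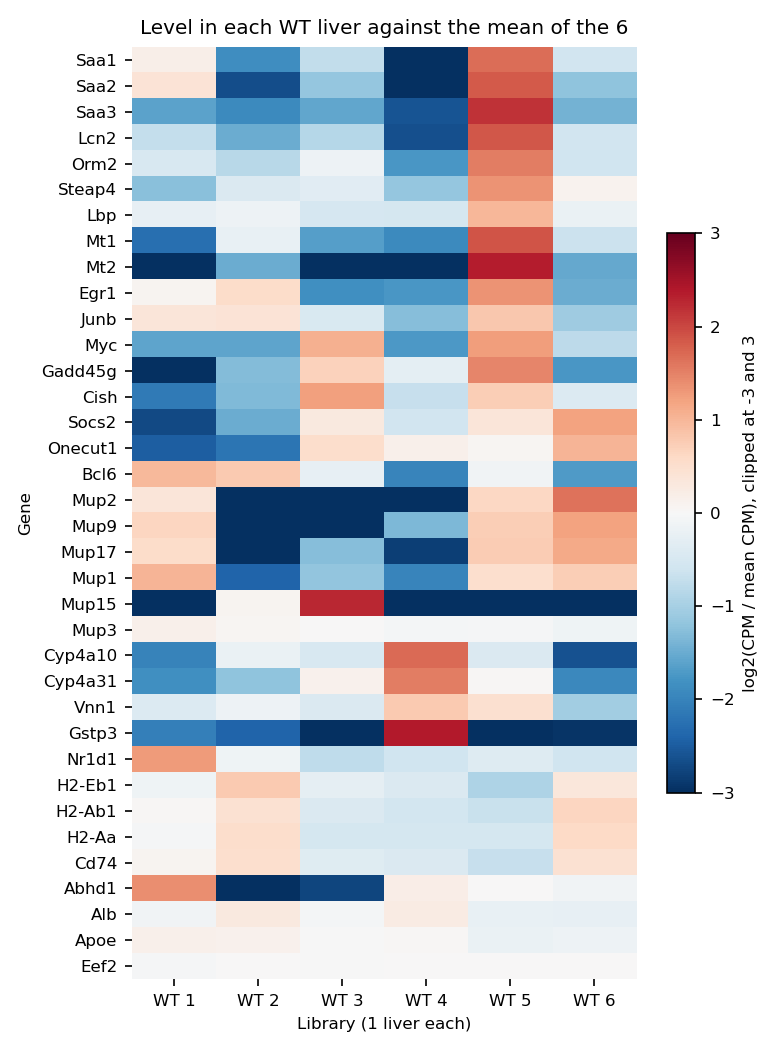
Level of 36 genes in each WT liver as log2 of CPM over the mean of the 6 (colour, clipped at the ends of the scale), with red above and blue below the mean. The upper rows are red in WT 5 from Saa1 to Gadd45g, Cish, Socs2 and Onecut1 are blue and Bcl6 red in WT 1 and WT 2, and Alb, Apoe and Eef2 at the foot stay near white.

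Genes of fatty acid oxidation under PPARalpha, the receptor that senses fatty acids in fasting, were called in 6 of 29 cases, and 16 of the 29 were highest in WT 4. Over all tested genes 3.27% were called and 14.7% were highest in WT 4. Cyp4a10 (ENSMUSG00000066072, chromosome 4), an omega hydroxylase and a classic target, was at 96.9 CPM in WT 4 and between 4.91 and 26.1 CPM in the other 5 livers (biological CV 1.14, 6 of 6 fits). Cyp4a31 and Vnn1, which makes pantothenate and cysteamine, also peaked in WT 4, at 14.1 and 22.2 CPM. Cyp4a10, Cyp4a31 and Cyp4a32 share sequence, and their sum kept the pattern, with 126 CPM in WT 4 and 15.6 to 42.9 CPM elsewhere. The median of the list was 0.129, against 0.115 for all genes. Its median level was 76.1 CPM, and genes from 20 to 100 CPM had a median biological CV of 0.0855.

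Genes of glucose handling and of the fed and fasted states differed in several directions. Igfbp1, an insulin-repressed binding protein, was at 2.45 CPM in WT 3 and between 10.5 and 22.7 CPM in the other livers. G6pc, which releases glucose from glucose 6-phosphate, was at 236 and 190 CPM in WT 4 and WT 6 and between 67.0 and 116 CPM in the rest. Irs2, an insulin receptor substrate, had 22.8 CPM in WT 1, the highest liver, and 6.63 CPM in WT 4, the lowest. The call of Igfbp1 ended without WT 3 (biological CV 0.340) and that of Irs2 without WT 1 (0.292). Of 23 genes on this list 5 were called (against 3.27% of all genes), and 3 without WT 1 or without WT 3. Fasn and Scd1 of lipid synthesis had biological CVs of 0.212 and 0.333 and were not called. Of 24 genes of cholesterol synthesis 0 were called, which is near the 3.27% of all genes. Of 23 genes of bile acid synthesis and transport 3 were called. Cyp7a1, which starts bile acid synthesis, was at 125 CPM in WT 5 and between 304 and 405 CPM elsewhere (adjusted p = 0.0155 by edgeR's goodness-of-fit test, called in 5 of 6 fits). Without WT 5 its biological CV fell from 0.325 to 0.120 and the call ended. Alas1, the first step of heme synthesis, was at 211 CPM in WT 1 and between 552 and 1018 CPM elsewhere, and was not called without WT 1 (biological CV 0.265).

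Of 23 clock genes 3 were called (against 3.27% of all genes), and 1 without WT 1. Nr1d1 (REV-ERB alpha), a repressor with a steep daily rhythm in liver, was at 74.8 CPM in WT 1 and between 18.1 and 28.4 CPM in the other 5 (biological CV 0.705, called in 5 of 6 fits). Without WT 1 the call ended, with a biological CV of 0.175. Noct, a phosphatase with a night peak, ranged from 26.5 CPM in WT 1 to 94.3 CPM in WT 4, and was not called without WT 4 (biological CV 0.235). Bhlhe41 was at 5.69 and 4.91 CPM in WT 1 and WT 6 and 1.46 to 2.75 CPM elsewhere, and lost its call without WT 1 (0.501) or WT 2 (0.477). The other 20 clock genes, Hlf among them (biological CV 0.0966), were not called.

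Class II genes, which present antigen on macrophages, dendritic cells and B cells, include the 4 called members of the MHC list. H2-Eb1, H2-Ab1, H2-Aa and Cd74, the invariant chain, were called, of 24 genes tested (against 3.27% of all genes). WT 2 and WT 6 were the highest livers for each of the 4. H2-DMa, also of class II, was not called and was highest in WT 1, at 3.26 CPM. H2-Eb1 was called in 4 of 6 fits (not without WT 2, biological CV 0.308, or WT 5, 0.366) and H2-Aa in 3 (not without WT 2, 0.382, WT 3, 0.368, or WT 6, 0.359). Without WT 2 or without WT 6, 1 of the 24 was called, and without WT 5, 2. H2-Ab1 stood at 14.1, 18.8, 10.2, 9.41, 8.67 and 21.4 CPM (biological CV 0.383, adjusted p = 0.00604 by edgeR's goodness-of-fit test, 5 of 6 fits), with 0.339 and no call without WT 6. Cd74 was at 70.0 and 67.7 CPM in WT 2 and WT 6 and between 30.5 and 52.1 CPM in the other 4, and was not called without WT 2 (0.330), WT 5 (0.294) or WT 6 (0.345). The 15 class I genes tested summed to 2466 ± 121 CPM with a biological CV of 0.0490. The 19 lymphocyte markers summed to 31.6 and 32.5 CPM in WT 2 and WT 6 and to 24.6 to 29.8 CPM in the others, and their part in the result was not tested.

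Several genes fell into separate levels rather than an even spread. Gstp3 (ENSMUSG00000058216, chromosome 19), a glutathione transferase, was at 265 CPM in WT 4 and between 5.81 and 12.3 CPM in the other 5 livers (biological CV 2.06, 5 of 6 fits). Without WT 4 it had a biological CV of 0.328 and no call. In the other 8 libraries it was at 299.7 and 244 CPM in 2 and at most 12.3 CPM in 6. Abhd1, an alpha/beta hydrolase, was at 38.1 CPM in WT 1, between 13.4 and 16.4 CPM in WT 4, WT 5 and WT 6, and at 1.71 and 2.14 CPM in WT 2 and WT 3 (biological CV 0.920, 6 of 6 fits). In the other 8 libraries it ran from 1.55 to 33.9 CPM and was called there as well. Serpina3m was at 883 and 910.5 CPM in WT 3 and WT 6 and between 141 and 229 CPM in the other 4. Slc15a2, a peptide transporter, had 1 and 2 counts in WT 6 and WT 2 and between 60 and 121 counts in the other 4.

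The last of these shows what the filter left out. It asked for the count minimum in every library, so a gene silent in 1 liver could not be tested. Among all genes, 107 had at most 3 counts in 1 WT library and at least 2 CPM in another, of which 24 were neither unnamed models nor pseudogenes. With the minimum asked of the mean, an alternative chosen after seeing the data, 105 of the 106 that could be tested were called, a count the choice of these genes largely fixes. The gene with the highest level among these was Rprl3, a relative of the RNase P RNA, with 8059 and 9604 counts in WT 2 and WT 3 and at most 4 in each of the other 4 libraries. H2ac19, a histone gene, had 45 and 229 counts in WT 4 and WT 6 and 0 elsewhere. It has 4 near-identical copies, with which it summed to 63.3 to 77.7 CPM (biological CV 0.0728). No limit is given for a count of 0, since estimated counts divide reads among copies.

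A share of the variable gene IDs were copies of other genes. Estimated counts were not whole in at least 3 WT libraries for 41.1% of the 450 called genes and for 17.8% of the genes tested, as happens where reads are divided between transcripts. A search of the longest transcript of each called or silent gene against all annotated transcripts (at least 95% identity over at least 50% of its length), with gene IDs of the same symbol added, found a copy with counts for 88 of the 450 calls (19.6%). Only 471 of the 557 genes to be searched have a transcript in GENCODE M21, so 88 is a minimum. The share of all tested genes with such a copy was not computed. For 51 of the 88, the biological CV of the sum was under 0.5 times that of the gene. Vcp-rs was at 25.4 and 27.3 CPM in WT 4 and WT 6 and under 2 CPM in the other 4, but its sum with Vcp, the ATPase it copies, stayed between 265 and 302 CPM (biological CV 0.0480). Zfp968 and Zfp969, a pair of zinc finger genes, traded places: Zfp968 had 0 counts in WT 1, where Zfp969 had 28.7 CPM, and Zfp969 had 0 in WT 4 and WT 6, where Zfp968 had 39.3 and 40.6 CPM. Their sum with 3 further copies was 37.0 to 48.1 CPM (biological CV 0.0870).

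Cyp2c69 and Cyp2c40 were at 37.1 and 114 CPM in WT 4 and at most 7.22 and 32.0 CPM elsewhere, and the sum with Cyp2c67 and Cyp2c68 was 725 CPM in WT 4 against 462 to 580 CPM (biological CV 0.165, not called). Over the whole Cyp2c family the sum had a biological CV of 0.0490 against a median of 0.277 for its 12 tested members. C4a, a copy of complement C4b, fell from a biological CV of 0.640 alone to 0.129 in the sum. In contrast, Saa1 with Saa2 (1.24), the Mup copies (0.364) and Cyp4a10 with its copies (0.878) stayed variable and were called as sums. So did Nnt, the mitochondrial transhydrogenase, which has 2 gene IDs in the table: its sum was 21.9, 24.9, 45.6, 55.5, 43.7 and 38.8 CPM (biological CV 0.334). When all linked copies were summed before testing, 420 of 13645 genes or groups were called (3.08%).

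**Figure D5:**
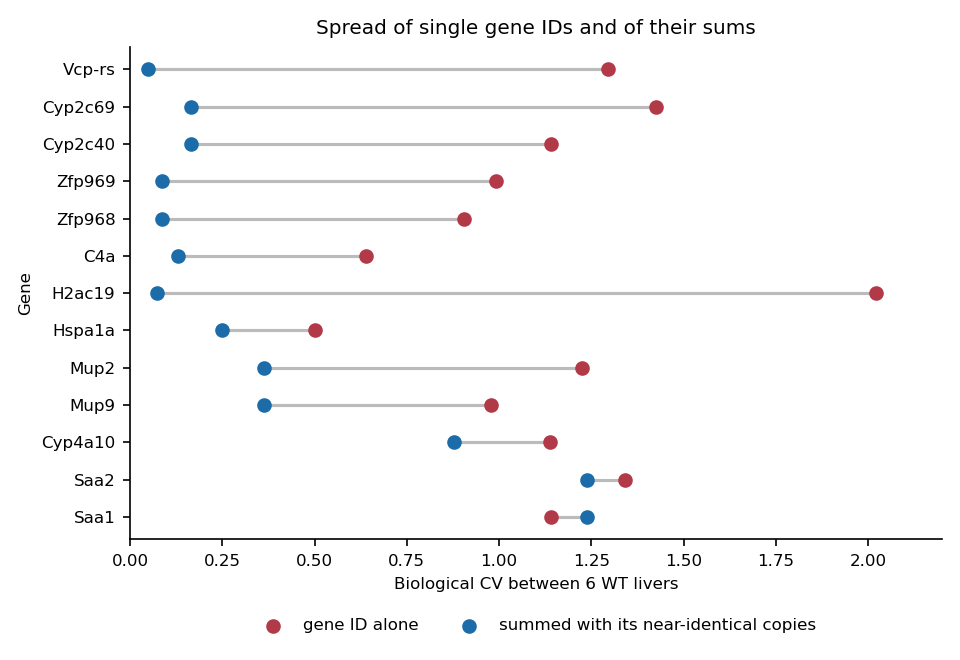
Biological CV of 13 genes as single gene IDs (red) and summed with their near-identical copies (blue). Vcp-rs, the 2 Cyp2c genes, the zinc finger pair, C4a and H2ac19 drop below 0.17 as sums, while Saa1 and Saa2 stay above 1.2 and Cyp4a10 at 0.878.

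Spread was measured again in the other livers. The 8 libraries labelled Het or Homo gave 683 of 15183 genes (4.5%) beyond their own trend, with genotype as a term in the fit. All 450 WT calls were tested there and 251 were called again, which is 55.8% of the WT calls and 50.3% of the 499 calls in the other set among genes tested in both. Of the 13734 genes tested in both sets, 3.63% were called in the other 8. The rank correlation of the biological CV between the sets was 0.515 over these genes, which are not independent replicates, and the sets share the kit and the processing. Saa2 (1.34 in both sets), Mup2 (1.22 and 1.24), Cyp4a10 (1.14 and 1.23) and Mt2 (2.04 and 1.51) kept a wide spread. Among the 30 most variable named genes, 28 were called in both, and the 2 others were Cyp26a1 (0.905 and 0.301) and the small nucleolar RNA Snora81 (1.01 and 0.188). Snora81 was at 19.9 CPM in WT 1 and between 3.29 and 4.57 CPM in the other 5 livers, and lost its call without WT 1 (biological CV 0.0979).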

How the data were processed

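Whole liver of 14 mice was sequenced from total RNA, and the 6 WT libraries were described. The authors deposited estimated counts per gene, 57180 genes by 14 libraries. Per the submitters' processing notes, STAR, Salmon and GRCm39 were used. The sources used here give no versions, roles or annotation. All value columns matched a sample (0 unmatched). Estimated counts were rounded to whole numbers. Genes were kept by filterByExpr (count minimum 10, total minimum 15), which with 1 group asks for the minimum in all 6 libraries. Libraries were scaled with TMM.

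In edgeR 4.0.16 (R 4.3.3), a fit with an intercept alone was made with dispersion 0, for counting noise, and with the trended dispersion, for the goodness-of-fit test (one-sided, 5 residual degrees of freedom, Benjamini-Hochberg over 13751 genes). The biological CV is set to 0 where the squared CV is below its counting part. The other 8 libraries had their group means fitted (6 residual degrees of freedom). DESeq2 1.42.0, limma 3.58.1, other scalings and filters, and each library left out in turn were the alternatives. Data for the WT spread over 13751 genes were simulated with every unchanged gene exactly at the dispersion trend. The test called 16.4% of 67 genes set at 2 times the trend, 76.1% of 67 at 3 times and 97.0% of 66 at 5 times. It also called 6 unchanged genes. Real genes scatter around the trend, so these rates need not hold for the livers. On simulated Poisson counts alone, the Poisson chi-square test called 0.

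Chromosomes, lengths and gene types came from GENCODE M21 (GRCm38), which places 13423 of the tested genes. No coordinate of GRCm39 was used. Copies were searched with blastn 2.17.0. Pairs were correlated on log2(CPM + 0.1). Of 10 pairs listed, Cyp4a10 with Cyp4a14 and Hba-a1 with Hbb-bs were not computed because a gene was not kept by the filter.

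Genes named were the 20 with the most counts, the 30 most variable called genes of at least 5 CPM with a gene name, the 10 least variable of at least 50 CPM, 3 variable and 1 stable gene of each list, up to 10 genes silent in a library, the 10 highest per kilobase, the pairs and Pkd1. Others are named as members of the lists or families, as copies, or were chosen after their values were seen (Gm56542, Nnt, Slc15a2, H2ac19 and the genes of the closing observations). Some genes that the rule names are not reported here. The genes, lists and pairs were chosen with earlier results of these data known.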

Additional observations from a re-analysis of the deposited data

Results flagged for a closer look

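Of 119 genes and measures looked at over the 6 WT livers, 26 had a highest or lowest library whose gap to the nearest other took up more of the whole range than Dixon's 95% critical value for 6 samples. Chance flags about 1 in 20 groups, the genes are not independent, and many were named because they vary.

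WT 5 stood apart as the high liver for Saa1 (1021 CPM), Saa2 (1077), Saa3 (60.5), Lcn2 (75.2), Orm2 (45.5), Lbp (118), Steap4 (500.04), Socs3 (26.5), Mt1 (133) and Mt2 (87.3), and as the low liver for Cyp7a1 (125 CPM). Acute phase genes, metallothioneins and the cytokine feedback gene Socs3 make up the high group.

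WT 4 stood apart as the high liver for Gstp3 (265 CPM), Cyp4a10 (96.9), Cyp4a31 (14.1), Cyp2c40 (114) and Cyp2c69 (37.1), and as the low liver for C4b (987 CPM). These are mostly enzymes of drug and fatty acid metabolism, and the Cyp genes share reads with copies.

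WT 1 stood apart as the high liver for Gm26461 (7717 CPM), Snora81 (19.9), Nr1d1 (74.8), mt-Nd2 (13531) and mt-Nd4l (5395), and as the low liver for Scarna10 (12.6), Snora73b (5.17) and Cd3e (3.92). WT 3 stood apart for Mup15 (311 CPM).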

How the results depend on the processing

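The number of genes beyond the dispersion trend depended most on the tool: 450 with edgeR, 254 as DESeq2 dispersion outliers and 1 with limma, where 663 had an unadjusted p under 0.05 (1000 with edgeR). The cause was not tested. Without 1 library edgeR called 371 to 400. The median biological CV was 0.115 as reported, 0.180 with no filter on low counts, 0.0965 at a mean of at least 5 CPM, 0.126 with the filter on the mean (chosen after seeing the data), and 0.0999 to 0.118 without 1 library, lowest without WT 1. The 10 highest genes took 22.3% of the counts, 23.04% without mitochondrially encoded genes and 24.9% per kilobase. Leaving out 1 library changed the sign of pair correlations: Cyp7a1 with Cyp8b1 ran from -0.116 (without WT 5) to 0.730, and Fasn with Scd1 from -0.467 (without WT 6) to 0.601. Of 65 called genes among 107 named, 27 lost the call in at least 1 setting. The other counts stayed within 1.5 times their reported value under the alternatives run, the sum of copies (420 calls, chosen after seeing the data) included. No paired analysis was possible because the results lie within 1 group and no groups were compared. Low counts limit genes near the filter, where counting takes up much of the spread.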

Other observations

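Several small RNA genes had their extreme level in WT 1, in both directions. Of the list of non-coding and structural RNA 0 of 7 tested genes were called, near the 3.27% of all genes. Snora73a and Snora73b, snoRNAs hosted by Snhg3, summed with that host to 10.8 CPM in WT 1 and to between 59.6 and 82.8 CPM in the other 5. Scarna10, which guides changes in spliceosomal RNA, was at 12.6 CPM in WT 1 and between 28.8 and 32.8 CPM elsewhere. Gm26461, an unnamed RNA gene whose near-identical copy is Rn7s6, was at 7717 CPM in WT 1 and between 205 and 753 CPM elsewhere. Cd3e, a chain of the T cell receptor complex, was at 3.92 CPM in WT 1 and between 12.5 and 14.1 CPM elsewhere, although the sum of the 19 lymphocyte markers in WT 1, 29.8 CPM, lay within the range of the others. Without WT 1, the calls of Cd3e (biological CV 0.0182), Scarna10 (0.0450), Snora73a (0.171) and Snora73b (0.152) ended. These genes were chosen after their values were seen.

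Globin transcripts, which come from red cells in the tissue's blood, were low and variable. Hbb-bs was at 7.68 CPM in WT 5, 5.76 CPM in WT 6 and between 0.437 and 2.89 CPM in the other 4 (biological CV 0.880, called in 6 of 6 fits). Hba-a2 and Hbb-bt were also highest in WT 5, at 5.81 and 11.9 CPM, but lost their calls without WT 5 (biological CV 0.408 and 0.385) and in other fits. Hamp2, a copy of the gene of the iron hormone hepcidin, reached 45.6 CPM in WT 2 and 34.8 CPM in WT 4 and between 13.1 and 20.5 CPM in the rest.

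Chromosome 4 held 11.3% of the calls and 5.94% of the tested genes. Of its 51 calls, 14 were Mup genes or Mup pseudogenes.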
